A study of Mus musculus with 12 samples.

Results

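The genes described here are those of the integrins and the laminins, the adhesion receptors of animal cells and a family of basement membrane proteins that many of them bind. The rule for members uses the symbol alone and takes the protein-coding entries whose names follow the Itga, Itgb and Lama, Lamb or Lamc patterns. There were 37 of them among 22491 protein-coding entries, with 18 integrin α chains, 8 integrin β chains and 11 laminin chains. Of these, 34 were among the 14752 genes that reached 1 FPKM (fragments per kilobase of transcript, scaled to library size) in at least 2 of the 12 libraries. Itga10, Itgad and Lama1 did not and were not tested.

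Gene expression was measured by RNA sequencing of whole tissue from C57Bl6 mice. TAp63-/- mice cannot make the longer p63 proteins, which begin with a transactivation domain, and wild-type (WT) mice can. The TAp63-/- cutaneous squamous cell carcinomas (cSCC, n = 4) and the WT cSCC (n = 2) came from mice older than 35 weeks under chronic ultraviolet radiation of 2.5 kJ/m2, given 3 times a week. The TAp63-/- skin (n = 3) and the WT skin (n = 3) were dorsal skin of untreated mice aged 4 weeks. Every comparison of tumour with skin thus also sets older against younger and irradiated against untreated mice, and these cannot be told apart. Sex differed as well, as given below. Library names begin with LM for tumours and with Su_R for skin, and what that marks is not stated. The titles carry a different identifier in brackets for each library. The labels do not say whether these are separate animals, so p-values measure the spread between these samples.

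Integrins are heterodimers of an α and a β chain that span the plasma membrane and tie the extracellular matrix, or a partner on another cell, to the cytoskeleton. Laminins are heterotrimers of an α, a β and a γ chain that form the sheet under epithelia and around muscle fibres, nerves and vessels. In skin, basal keratinocytes stand on laminin-332, which holds the products of Lama3 and Lamb3, and grip it through integrin α6β4 in hemidesmosomes and through integrin α3β1. Loss of these chains causes skin blistering in people.

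Summed FPKM lay between 780180 and 780251 in every library, because the deposited columns share 1 distribution, so read depth is unknown and no counting interval can be given. Trp63, the targeted gene, had 245, 109, 164 and 258 FPKM in TAp63-/- tumours, 141 and 97.3 in WT tumours, 111, 98.2 and 84.5 in TAp63-/- skin and 113, 100.4 and 119 in WT skin. That value sums isoforms with and without the transactivation domain and does not check the deletion. By Xist and Y-linked genes, TAp63-/- cSCC 1 and the 6 skin libraries were male, and 5 tumours were female. Both WT tumours were female, so between WT cSCC and WT skin the tissue and the sex cannot be told apart. Summed skeletal muscle markers were 52.7 to 350 FPKM in TAp63-/- tumours, 150 to 682 in WT tumours, 7166 to 12083 in TAp63-/- skin and 6782 to 7642 in WT skin. In bulk tissue, fewer cells of a type and less RNA per cell cannot be told apart.

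RefSeq held 26 start-site windows of 23 members on GRCm38.p6, the assembly also called mm10. The 4 shown belong to a pair of genes that were higher in tumours in the same order of libraries (Itga3 and Lamb3) and a pair that were lower (Lama2 and Lamb2). Each runs 5′ to 3′ on the gene's strand from 250 bases before the start site to 50 after it, and which start site these libraries used is not known. Capitals mark a match, on either strand, to the AP-1-like letters TGANTCA or the TEAD motif GGAATG. A p53-family motif was also searched. The N stands for any base, which is looser than the usual AP-1 site with C or G there. The Itga3 match, TGAATCA, has A at that place. The Itga3 window is chr11:95069149-95069448 (minus strand), a start inside the gene with the AP-1 letters at position 13 after it; the other Itga3 window, at the gene's 5′ end (chr11:95076665-95076964), holds no match. The Lamb3 window is chr1:193301993-193302292 (plus strand), with the TEAD letters on the other strand at -167; the other Lamb3 window, which overlaps it (chr1:193301744-193302043), holds no match. The Lama2 window is chr10:27616893-27617192 (minus strand) and the Lamb2 window is chr9:108479612-108479911 (plus strand), neither with a match.
Itga3: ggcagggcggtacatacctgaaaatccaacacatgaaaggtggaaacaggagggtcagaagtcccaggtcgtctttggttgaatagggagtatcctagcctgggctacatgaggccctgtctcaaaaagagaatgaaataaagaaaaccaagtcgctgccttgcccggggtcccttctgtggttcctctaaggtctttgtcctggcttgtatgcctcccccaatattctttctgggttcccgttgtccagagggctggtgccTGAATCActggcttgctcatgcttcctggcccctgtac
Lamb3: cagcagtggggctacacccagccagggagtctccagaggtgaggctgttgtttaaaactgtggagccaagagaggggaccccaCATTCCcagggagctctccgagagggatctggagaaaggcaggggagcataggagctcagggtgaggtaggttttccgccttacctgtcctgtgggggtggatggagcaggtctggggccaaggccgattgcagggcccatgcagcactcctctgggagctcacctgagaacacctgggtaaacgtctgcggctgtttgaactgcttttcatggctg
Lama2: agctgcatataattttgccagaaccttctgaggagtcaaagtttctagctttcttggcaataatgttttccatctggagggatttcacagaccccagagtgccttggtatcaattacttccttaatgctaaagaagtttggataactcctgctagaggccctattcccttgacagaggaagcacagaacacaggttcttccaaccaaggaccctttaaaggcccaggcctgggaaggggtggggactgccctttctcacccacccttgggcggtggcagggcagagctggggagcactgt
Lamb2: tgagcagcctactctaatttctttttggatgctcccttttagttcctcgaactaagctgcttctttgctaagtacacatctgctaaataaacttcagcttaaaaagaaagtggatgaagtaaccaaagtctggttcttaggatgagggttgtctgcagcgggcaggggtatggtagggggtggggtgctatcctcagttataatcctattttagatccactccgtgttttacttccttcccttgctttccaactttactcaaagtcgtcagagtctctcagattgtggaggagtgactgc
The AP-1 letters stood in 3 of the 26 windows (11.5%), against 7.81% of 32851 windows of all genes. The TEAD letters stood in 3 windows (11.5%), against 14.7%, and the p53-family motif in 1 (3.85%), against 8.36%. None of the motifs overlaps another in the windows shown, and a match is a description of letters only.

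The first comparisons asked how the integrin and laminin genes of tumours differed from those of skin within each genotype. Lama3, Lamb3 and the receptor genes Itga6, Itgb4 and Itga3 were higher in every tumour than in any skin library, and Lama2 and Lamb2 were lower. Itgb1, the partner of Itga3 in the receptor α3β1, overlapped between the tissues. In TAp63-/- cSCC against TAp63-/- skin, 9 of the 34 tested members rose (among them Lama3, Itga6, Itgb4, Itga3, Lamb3, Itga5, Lama5 and Itgav) and 2 fell (Lama2 and Lamb2), while 13.0% of all tested genes rose and 14.2% fell. In WT cSCC against WT skin, 3 members rose (among them Lama3 and Itga5) and the same 2 fell, against 4.66% and 6.77% of all tested genes. A gene was called here when limma's Benjamini-Hochberg adjusted p over all tested genes was below 0.05. All 5 members called in the WT pair were also called in the TAp63-/- pair. The median log2 change over the 34 members was 0.49 in the TAp63-/- pair and 0.24 in the WT pair, beside 0.10 and 0.04 over all tested genes.

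Looking at all 12 libraries without regard to genotype, 8 members had every tumour above every skin library (among them Itga3, Itga5, Itga6, Itgav, Itgb4, Lama3 and Lamb3), as did 11.0% of all tested genes. Lama2 and Lamb2 had every tumour below every skin library, as did 10.9% of all tested genes, and the other 24 members overlapped. The WT calls rested on few libraries: without WT cSCC 1 none of the 5 was called, and without WT cSCC 2 there were 10 calls. When sex was added as a term, the TAp63-/- pair kept Itgav, Lama2 and Lama5 of its 11 calls and the WT pair kept none of its 5. In that fit the sex term comes from TAp63-/- tumours alone, so the TAp63-/- difference is that of the 1 male tumour, TAp63-/- cSCC 1, from skin. The WT difference is adjusted by the same term, which no WT library informs.

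**Figure D1:**
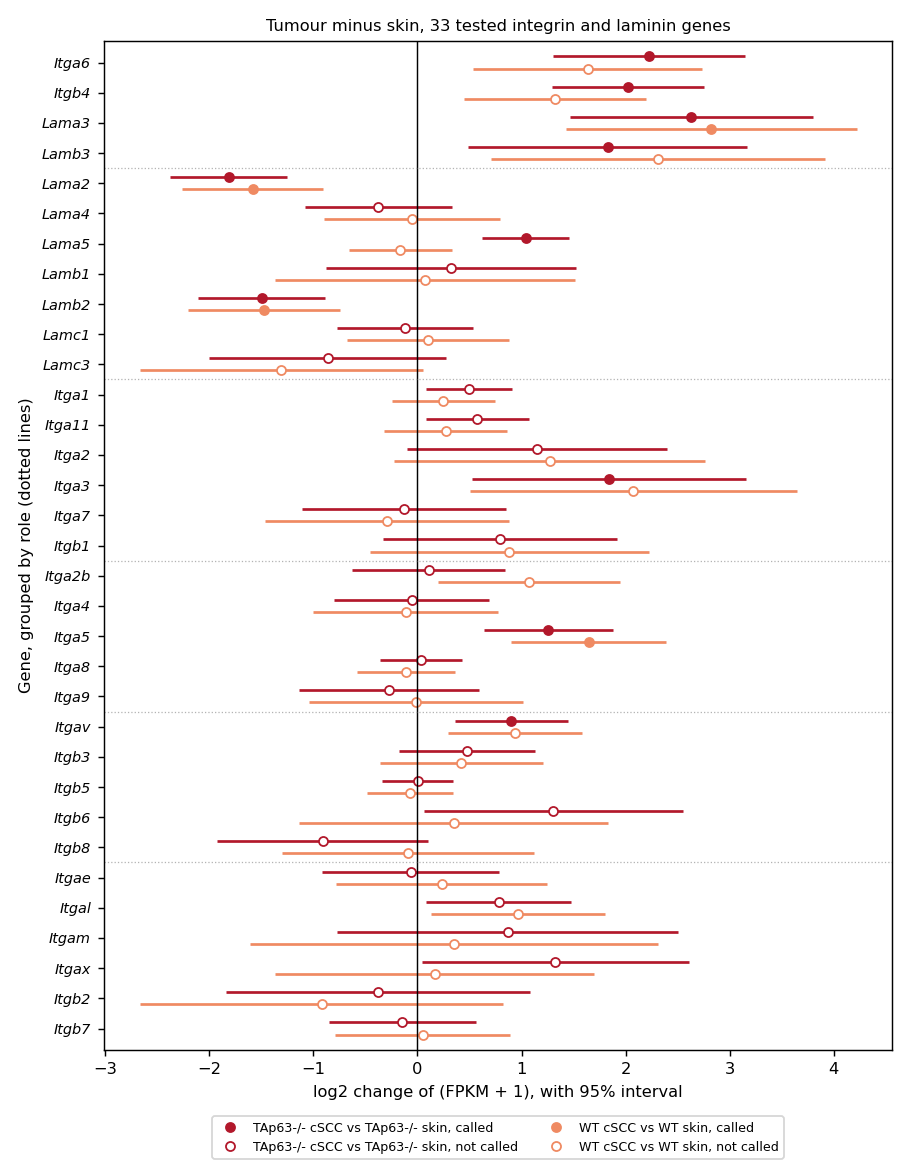
Change of 33 tested members between tumour and skin, as the difference of log2(FPKM + 1) with its 95% interval from limma, in TAp63-/- (dark red) and WT (orange) pairs, grouped by role. Filled points passed the test; Itga6, Itgb4, Lama3 and Lamb3 at the top lie to the right of 0 in both pairs, and Lama2 and Lamb2 lie to the left.

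Lama3 and Lamb3, of laminin-332, and the genes of its receptor α6β4 were higher in every tumour than in any skin library. All 4 rose in the TAp63-/- pair, and Lama3 also in the WT pair. Lama3 (ENSMUSG00000024421, chromosome 18), the α3 chain, had 18.9, 24.9, 58.9 and 44.7 FPKM in TAp63-/- tumours, 96.0 and 15.3 in WT tumours, 5.27, 4.74 and 3.77 in TAp63-/- skin and 4.23, 4.49 and 5.19 in WT skin. Its lowest tumour, WT cSCC 2, was still above the highest skin library. The mean FPKM was 8.02-fold higher in TAp63-/- tumours than in TAp63-/- skin. The log2 change was 2.63 (SE 0.53, limma adjusted p = 0.00459) in the TAp63-/- pair and 2.82 (SE 0.63, adjusted p = 0.0175) in the WT pair. The TAp63-/- call was lost in 1 of 15 alternative fits and the WT call in 6 of 13. Lamb3 (ENSMUSG00000026639, chromosome 1, 193301957 to 193343878, mm10, plus strand), the β3 chain, had 33.5, 60.1, 122 and 99.9 FPKM in TAp63-/- tumours and 282 and 36.9 in WT tumours. It had 24.9, 14.1 and 19.8 FPKM in TAp63-/- skin and 16.5, 18.3 and 25.7 in WT skin. The gap between the lowest tumour and the highest skin library was small, and the spread between tumours was wide. Lamb3 rose in the TAp63-/- pair (log2 change 1.83, SE 0.61, limma adjusted p = 0.0462), a call that was lost in 9 of 15 alternative fits, and did not pass in the WT pair (2.31, SE 0.73, adjusted p = 0.0640).

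Itga6 (ENSMUSG00000027111, chromosome 2, 71745616 to 71858416, mm10, plus strand), the α6 chain of the hemidesmosome receptor, had 158, 366, 422 and 234 FPKM in TAp63-/- tumours and 295 and 94.2 in WT tumours. It had 78.3, 56.6 and 44.1 FPKM in TAp63-/- skin and 46.3, 51.6 and 62.6 in WT skin. The TAp63-/- tumours were all at least 158 FPKM and WT cSCC 2 was the tumour nearest to skin. Itga6 rose in the TAp63-/- pair (log2 change 2.22, SE 0.42, limma adjusted p = 0.00309) and did not pass in the WT pair (1.63, SE 0.50, adjusted p = 0.0581). Itgb4 (ENSMUSG00000020758, chromosome 11, 115974709 to 116008412, mm10, plus strand), the β4 chain with the long cytoplasmic tail that binds plectin, had 61.2, 71.4, 121 and 104 FPKM in TAp63-/- tumours and 81.9 and 34.4 in WT tumours. It had 29.2, 17.1 and 17.0 FPKM in TAp63-/- skin and 18.4, 19.8 and 24.1 in WT skin. The groups did not overlap by tissue. Itgb4 rose in the TAp63-/- pair (log2 change 2.02, SE 0.33, limma adjusted p = 0.00138) and did not pass in the WT pair (1.32, SE 0.40, adjusted p = 0.0545).

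The tumours kept one order for some of these genes. Lamb3 and Itga3 each ran from WT cSCC 1, the highest, through TAp63-/- cSCC 3, 4 and 2 and WT cSCC 2 to TAp63-/- cSCC 1. Lama3 kept that order but for the last pair. The 2 tumours at the low end, TAp63-/- cSCC 1 and WT cSCC 2, had the highest summed skeletal muscle markers of the tumours, 350 and 682 FPKM, against 52.7 to 212 in the other 4. What part muscle has in the order of tumours was not tested.

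**Figure D2:**
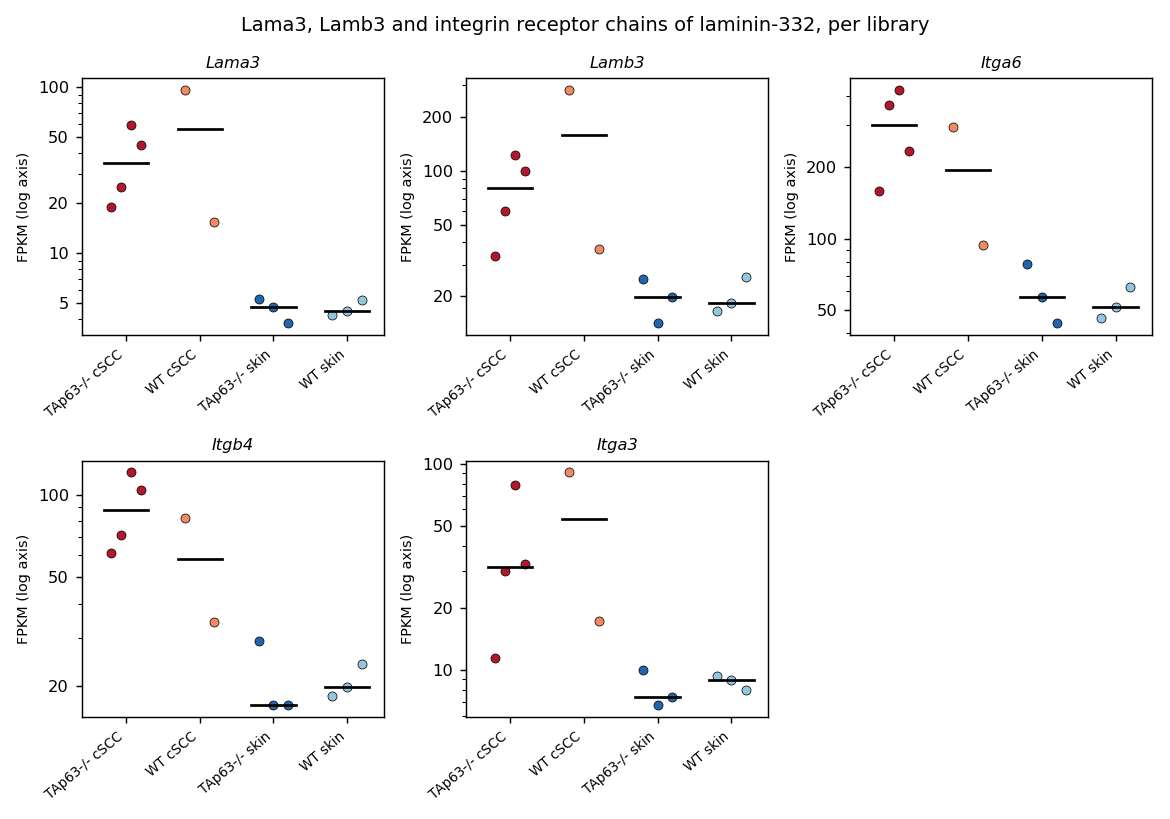
FPKM (log axis) of Lama3, Lamb3, Itga6, Itgb4 and Itga3 in each of the 12 libraries, 1 point per library, with a bar at the group median. Every tumour point lies above every skin point in all 5 panels, and for Lama3 the tumours run from 15.3 to 96.0 FPKM while skin stays between 3.77 and 5.27.

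FPKM is scaled by transcript length, and on that basis the chains were set beside each other within a library. Fitting all columns to the shared distribution keeps the order of genes within a library but may alter the size of a ratio. The ratio of Lama3 to Lama2, both α chains, was 14.9, 13.0, 34.6 and 18.7 in TAp63-/- tumours and 97.7 and 5.02 in WT tumours, against 0.551, 0.519 and 0.484 in TAp63-/- skin and 0.744, 0.547 and 0.582 in WT skin. In tumours the epithelial α3 transcript was thus the more abundant and in skin the α2 transcript was. The ratio of Lamb3 to Lamb2, both β chains, ran from 6.28 to 100.4 in the 6 tumours and from 1.04 to 1.60 in the 6 skin libraries. Lama3 to Lama5, the α chain also found under adult epidermis, ran from 1.85 to 16.7 in tumours and from 0.675 to 1.51 in skin. None of these ranges overlapped, and the ratios were not tested.

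Lama3 and Lamb3 did not keep a fixed proportion. Lamb3 to Lama3 was 1.77 to 2.93 in tumours and 2.98 to 5.26 in skin, so Lamb3 was lower relative to Lama3 in tumours than in skin. Against Lamb1, the more widespread β chain, Lamb3 overlapped, at 0.520 to 9.03 in tumours and 0.221 to 2.07 in skin. The receptor chains overlapped too, with Itga6 to Itgb4 at 2.25 to 5.13 in tumours and 2.52 to 3.31 in skin.

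The basal layer itself was set beside these genes through 4 markers, Krt5, Krt14, Krt15 and Trp63. Of these, 3 rose and 1 fell in the TAp63-/- pair and 1 rose and 1 fell in the WT pair. Trp63, among the 3 that rose, is the targeted gene, and its value sums isoforms with and without the transactivation domain. Krt15, a keratin of basal and hair follicle stem cells, fell by 4.46 on the log2 scale (SE 0.44, limma adjusted p = 6e-05) in the TAp63-/- pair and by 3.64 (SE 0.53, adjusted p = 0.00211) in the WT pair. It had 17.3 to 53.4 FPKM in TAp63-/- tumours and 30.3 and 90.0 in WT tumours, against 443 to 1085 in TAp63-/- skin and 608 to 761 in WT skin. Krt14 rose in the TAp63-/- pair (log2 change 2.89, SE 0.43, limma adjusted p = 0.00079) and in the WT pair (3.06, SE 0.52, adjusted p = 0.00467), while Krt5, its partner, rose in the TAp63-/- pair by 0.95 (SE 0.22, adjusted p = 0.00896) and did not pass in the WT pair (0.67, SE 0.26, adjusted p = 0.118). Itga6 relative to Krt5 was 0.0305 to 0.136 in tumours and 0.0235 to 0.0416 in skin, and 5 of the 6 tumours were above every skin library. Itga6 relative to Krt14 was 0.00659 to 0.0858 in tumours and 0.0383 to 0.0884 in skin, and no tumour was above every skin library. WT cSCC 2 (0.00659) and TAp63-/- cSCC 1, 3 and 4 (0.0240, 0.0295 and 0.0290) were below every skin library. The tissue contrast of Itga6 was thus seen against Krt5, while against Krt14 most tumours were lower than skin. At this height the shared distribution gives different libraries identical values, such as 14287 FPKM of Krt14 in both TAp63-/- cSCC 3 and WT cSCC 2, so the keratin denominators are coarse. The part of basal cell number in these changes was not tested.

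**Figure D3:**
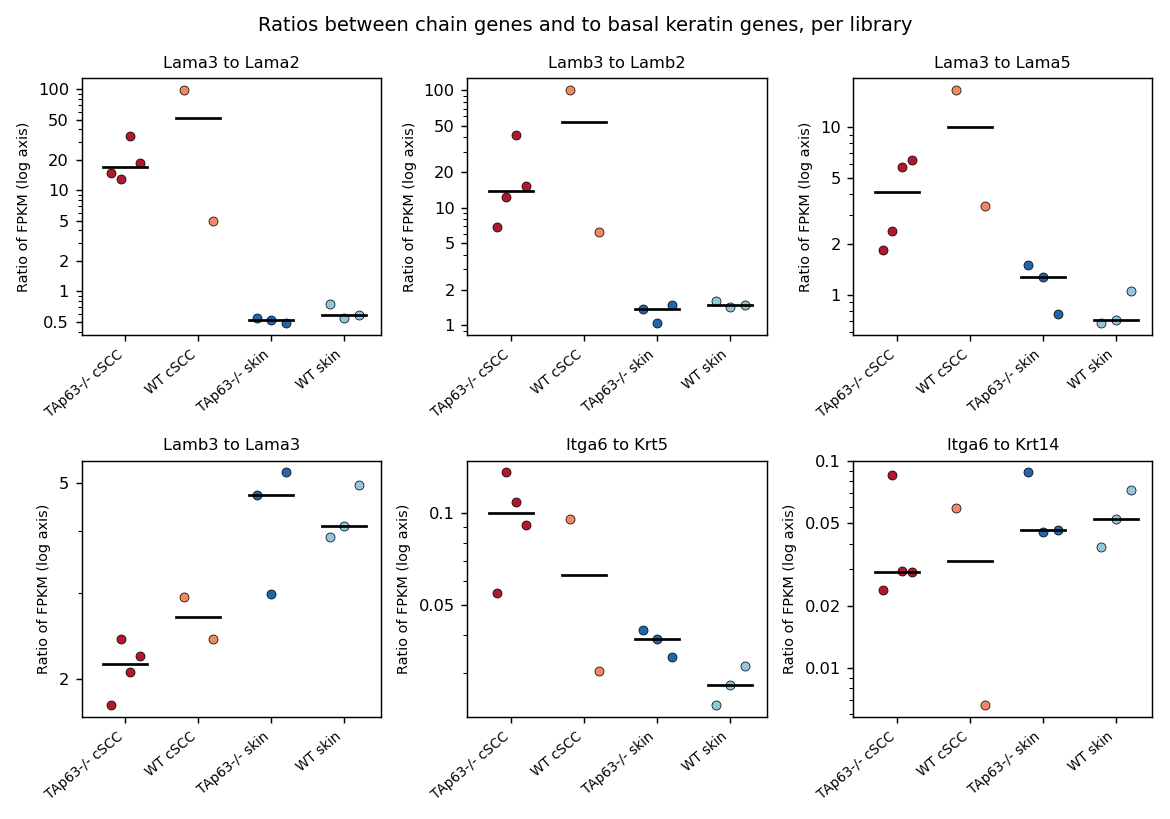
Ratio of FPKM values within each library (log axes), 1 point per library with a bar at the group median. The upper panels set Lama3 or Lamb3 over another chain of the same class, and tumours and skin do not overlap; in the lower panels Lamb3 over Lama3 does not overlap, and Itga6 over Krt5 and over Krt14 do.

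Of 8 chains of other laminins, 7 were tested. In the TAp63-/- pair 1 rose and 2 fell, and in the WT pair 0 rose and 2 fell, with median log2 changes of -0.37 and -0.16. Of all tested genes, 13.0% rose and 14.2% fell in the TAp63-/- pair, and 4.66% rose and 6.77% fell in the WT pair. Lama2 (ENSMUSG00000019899, chromosome 10, 26981288 to 27616942, mm10, minus strand), the α2 chain of the laminins around muscle fibres and Schwann cells, had 1.27, 1.91, 1.70 and 2.39 FPKM in TAp63-/- tumours and 0.982 and 3.04 in WT tumours. It had 9.56, 9.15 and 7.79 FPKM in TAp63-/- skin and 5.68, 8.20 and 8.91 in WT skin. Every tumour was below every skin library. The log2 change was -1.81 (SE 0.26, limma adjusted p = 0.000537) in the TAp63-/- pair, where the call was kept in all 15 alternative fits, and -1.58 (SE 0.31, adjusted p = 0.00878) in the WT pair. The WT call was lost in 3 of 13 alternative fits.

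Lamb2 (ENSMUSG00000052911, chromosome 9, 108479862 to 108490530, mm10, plus strand), the β2 chain found at neuromuscular junctions and in vessel walls, had 4.91, 4.82, 2.91 and 6.47 FPKM in TAp63-/- tumours and 2.80 and 5.87 in WT tumours. It had 18.3, 13.6 and 13.2 FPKM in TAp63-/- skin and 10.3, 12.7 and 17.3 in WT skin, again with no overlap. The log2 change was -1.50 (SE 0.28, limma adjusted p = 0.00293) in the TAp63-/- pair and -1.47 (SE 0.33, adjusted p = 0.0180) in the WT pair. The TAp63-/- call was lost in 1 of 15 alternative fits and the WT call in 5 of 13. Markers of several cell types fell in the same comparisons, in which 14.2% (TAp63-/- pair) and 6.77% (WT pair) of all tested genes fell. Of 9 tested skeletal muscle markers, 9 fell in the TAp63-/- pair and 8 in the WT pair, and all 5 Schwann cell markers fell in both. Summed Schwann cell markers were 16.5 to 31.1 FPKM in TAp63-/- tumours, 22.9 to 46.6 in WT tumours, 146 to 201 in TAp63-/- skin and 111 to 216 in WT skin, with Sox10 listed at 0 in 1 library. Of 7 smooth muscle and pericyte markers, 3 fell in the TAp63-/- pair and 2 in the WT pair, and their sum was 100.6 to 284 FPKM in TAp63-/- tumours, 147 to 169 in WT tumours, 304 to 333 in TAp63-/- skin and 253 to 325 in WT skin. In the TAp63-/- pair 6 of 7 fibroblast, 5 of 5 melanocyte and 4 of 5 adipocyte markers fell, and in the WT pair 3, 2 and 3 of them did. Their part in the change of Lama2 and Lamb2 was not tested.

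Lama5 (ENSMUSG00000015647, chromosome 2, 180176373 to 180225859, mm10, minus strand), the α5 chain of the laminins that lie with laminin-332 under adult epidermis, passed in the TAp63-/- pair, and the difference between the pairs, tested as an interaction, failed the correction (limma adjusted p = 0.687). It had 10.2, 10.3, 10.1 and 6.97 FPKM in TAp63-/- tumours and 5.76 and 4.49 in WT tumours. It had 3.49, 3.71 and 4.92 FPKM in TAp63-/- skin and 6.26, 6.39 and 4.91 in WT skin. All 4 TAp63-/- tumours were above both WT tumours and above all skin libraries, whereas WT tumours lay within the range of skin. Lama5 rose in the TAp63-/- pair (log2 change 1.04, SE 0.19, limma adjusted p = 0.00255) and did not pass in the WT pair (-0.16, SE 0.23, adjusted p = 0.688).

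The other tested laminin chains did not pass in either pair. Lama4, the α4 chain of vessel laminins, ran from 3.60 to 11.4 FPKM in tumours and from 7.99 to 13.3 in skin, and Lamc1 from 13.4 to 38.4 and from 17.7 to 30.0. Lamb1, the β1 chain that pairs with γ1 in most tissues, ran from 21.2 to 116 FPKM in tumours and from 12.4 to 64.0 in skin. Lamc3, the γ3 chain, had 0.261, 6.11, 0.212 and 0.582 FPKM in TAp63-/- tumours and 0.263 and 0.959 in WT tumours, against 2.58 to 3.30 in the 6 skin libraries. A single library, TAp63-/- cSCC 2, was above skin and the other 5 tumours were below it. Its log2 change was -0.86 (SE 0.52, limma adjusted p = 0.238) in the TAp63-/- pair and -1.31 (SE 0.62, adjusted p = 0.194) in the WT pair. Lama1, the α1 chain of embryonic laminin, was at 0.0451 to 0.842 FPKM in tumours and 0.0392 to 1.01 in skin and was not tested.

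**Figure D4:**
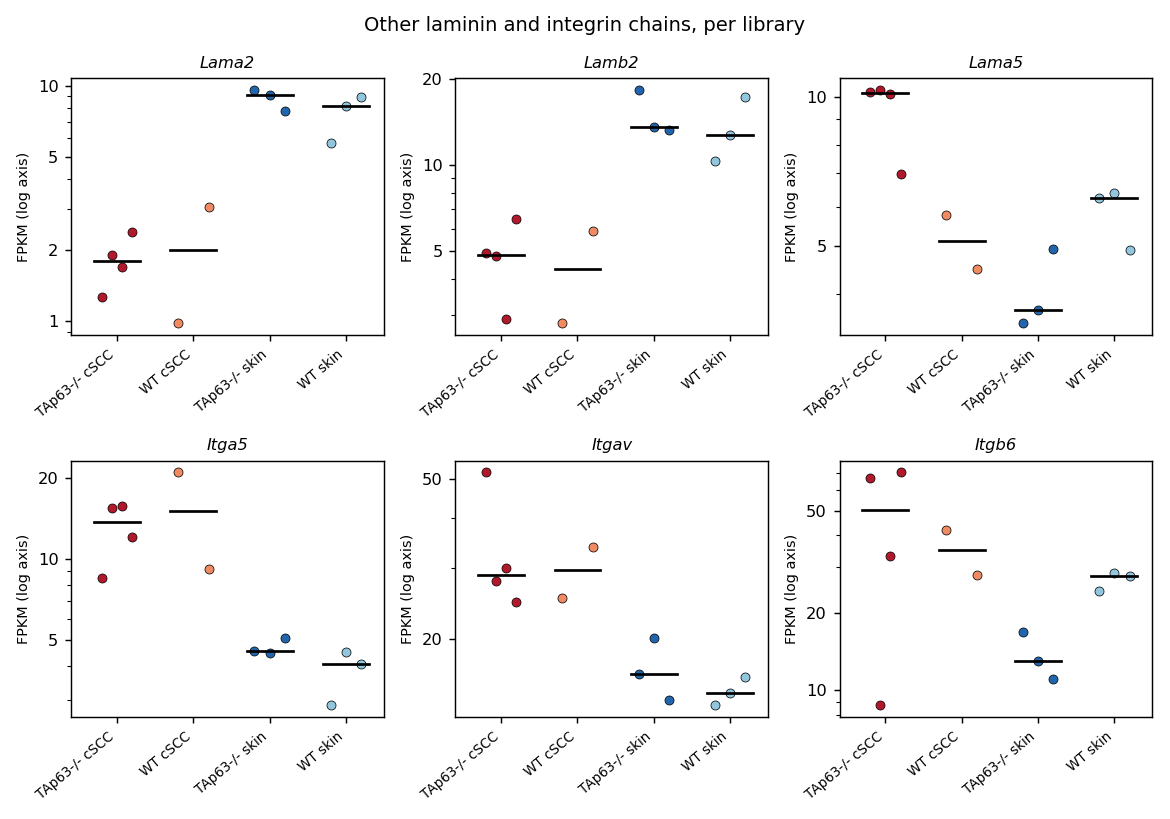
FPKM (log axis) of Lama2, Lamb2, Lama5, Itga5, Itgav and Itgb6 in each of the 12 libraries, 1 point per library, with a bar at the group median. Lama2 and Lamb2 lie lower in every tumour than in any skin library, Itga5 and Itgav lie higher in every tumour, and Itgb6 in TAp63-/- skin (11.0 to 16.8 FPKM) lies below WT skin (24.4 to 28.5 FPKM).

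Among the β1 chain and its collagen and laminin receptor partners, 1 of 6 tested genes rose in the TAp63-/- pair and 0 in the WT pair. Of all tested genes, 13.0% and 4.66% rose in these pairs. With limma, 3 of the 6 had an unadjusted p below 0.05 in the TAp63-/- pair and 1 in the WT pair. Itga3 (ENSMUSG00000001507, chromosome 11, 95044474 to 95076801, mm10, minus strand), the α3 chain of the other keratinocyte receptor for laminin-332, had 11.5, 30.1, 78.5 and 32.6 FPKM in TAp63-/- tumours and 90.8 and 17.3 in WT tumours. It had 10.0, 6.72 and 7.39 FPKM in TAp63-/- skin and 9.33, 8.94 and 8.0 in WT skin. The tumours spread widely, and TAp63-/- cSCC 1 was only just above skin. Itga3 rose in the TAp63-/- pair (log2 change 1.84, SE 0.60, limma adjusted p = 0.0420), a call lost in 10 of 15 alternative fits, and did not pass in the WT pair (2.07, SE 0.71, adjusted p = 0.0858).

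Itgb1, the β chain shared by most matrix receptors, was the most abundant member in skin by mean FPKM. It had 57.0, 251, 230.4 and 94.5 FPKM in TAp63-/- tumours, 199 and 64.2 in WT tumours, 68.9, 92.4 and 69.9 in TAp63-/- skin and 54.1, 65.5 and 63.5 in WT skin. TAp63-/- cSCC 1 and WT cSCC 2 lay within the skin range and the other 4 tumours above it. Itgb1 did not pass in the TAp63-/- pair (log2 change 0.79, SE 0.51, limma adjusted p = 0.271) or in the WT pair (0.88, SE 0.61, adjusted p = 0.374). The collagen receptor gene Itga2 had 1.96 to 20.8 FPKM in tumours and 1.73 to 4.01 in skin, and lies 26.0 kb from Itga1, another collagen receptor gene, at 3.08 to 5.30 and 2.65 to 3.69 FPKM. Itga11, a receptor of fibrillar collagen on fibroblasts, ran from 3.03 to 6.83 FPKM in tumours and from 1.92 to 3.06 in skin. Itga7, the α7 chain of the laminin receptor of muscle, ran from 1.08 to 10.0 FPKM in tumours and from 4.24 to 7.14 in skin; its log2 change was -0.13 (SE 0.44, limma adjusted p = 0.858) in the TAp63-/- pair. Reads over Itga7 and Itga1, as over Itga4 and Itgae, could be shared with overlapping protein-coding genes. As strand was not given, those over Lama2, Lama3, Itga6, Itgb4 and Itgav could be shared with annotated genes on the opposite strand. Of the 11 members called in any comparison, 7 overlap another annotated gene, and 0 overlap a protein-coding one. Itga10, a collagen receptor chain of cartilage, was below 1 FPKM in every library.

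Of the other matrix receptor α chains, Itga5 alone passed, and it passed in both pairs. Itga5 (ENSMUSG00000000555, chromosome 15, 103344289 to 103366763, mm10, minus strand), the α chain of the fibronectin receptor α5β1, had 8.51, 15.4, 15.8 and 12.02 FPKM in TAp63-/- tumours and 20.9 and 9.15 in WT tumours. It had 4.54, 4.46 and 5.08 FPKM in TAp63-/- skin and 2.86, 4.53 and 4.08 in WT skin. All tumours were above all skin libraries. The log2 change was 1.26 (SE 0.28, limma adjusted p = 0.00823) in the TAp63-/- pair and 1.65 (SE 0.34, adjusted p = 0.0114) in the WT pair. The TAp63-/- call was lost in 1 of 15 alternative fits and the WT call in 3 of 13. Itga4, Itga8 and Itga9, whose products bind VCAM1 and fibronectin, nephronectin, and tenascin among other ligands, did not pass in either pair and ran from 0.805 to 7.56 FPKM over all 12 libraries. Itga2b, the α chain of the platelet fibrinogen receptor, had 2.16, 1.96, 2.43 and 4.77 FPKM in TAp63-/- tumours and 6.70 and 4.56 in WT tumours. It had 1.24, 2.00 and 4.97 FPKM in TAp63-/- skin and 2.29, 1.95 and 2.11 in WT skin, so the tissues overlapped. Its log2 change in the WT pair was 1.07 (SE 0.40, limma adjusted p = 0.106), and of 3 tested platelet markers 1 fell in the TAp63-/- pair and 0 passed in the WT pair, where 2 had an unadjusted p below 0.05.

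In the αv family, 1 of 5 genes rose in the TAp63-/- pair and 0 in the WT pair, beside 13.0% and 4.66% of all tested genes. With limma, 2 of the 5 had an unadjusted p below 0.05 in the TAp63-/- pair and 1 in the WT pair. The members bind ligands with the Arg-Gly-Asp sequence and include activators of latent TGF-β. Itgav (ENSMUSG00000027087, chromosome 2, 83724397 to 83806916, mm10, plus strand), the α chain they share, had 51.8, 27.8, 29.9 and 24.6 FPKM in TAp63-/- tumours and 25.3 and 33.9 in WT tumours. It had 16.4, 20.1 and 14.1 FPKM in TAp63-/- skin and 13.6, 14.7 and 16.0 in WT skin. The tumours were all higher than skin, and TAp63-/- cSCC 1, the lowest tumour for Lamb3, was the highest for Itgav. Its log2 change was 0.90 (SE 0.24, limma adjusted p = 0.0198) in the TAp63-/- pair and 0.94 (SE 0.29, adjusted p = 0.0617) in the WT pair.

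Itgb6, the epithelial β chain of αvβ6, had 67.0, 8.71, 33.1 and 70.5 FPKM in TAp63-/- tumours and 42.0 and 28.1 in WT tumours. It had 16.8, 13.0 and 11.0 FPKM in TAp63-/- skin and 24.4, 28.5 and 27.8 in WT skin. One TAp63-/- tumour lay below all skin libraries, and the gene did not pass in the TAp63-/- pair (log2 change 1.30, SE 0.57, limma adjusted p = 0.109) or in the WT pair (0.35, SE 0.68, adjusted p = 0.781). Itgb5, another αv partner, overlapped between the tissues, at 23.1 to 36.5 FPKM in tumours and 25.0 to 35.6 in skin, with a log2 change of 0.00 (SE 0.16, limma adjusted p = 0.995) in the TAp63-/- pair. Itgb3 ran from 1.34 to 5.05 FPKM in tumours and from 1.36 to 2.61 in skin, and Itgb8 from 0.950 to 7.69 and from 4.18 to 10.2; neither passed.

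The leukocyte integrins were not called in either pair (0 of 6 tested genes with limma; at an unadjusted p below 0.05 there were 2 in the TAp63-/- pair and 1 in the WT pair). Itgb2, the β2 chain of LFA-1 and Mac-1, had 14.3, 53.2, 3.65 and 14.5 FPKM in TAp63-/- tumours and 13.5 and 10.5 in WT tumours, against 16.8, 18.0 and 23.7 in TAp63-/- skin and 11.6, 40.7 and 26.7 in WT skin. Itgam, the α chain of Mac-1 on neutrophils and macrophages, had 34.5, 118, 5.62 and 50.4 FPKM in TAp63-/- tumours and 46.9 and 32.7 in WT tumours, against 14.3, 20.6 and 19.8 in TAp63-/- skin and 19.4, 32.9 and 44.1 in WT skin. For both genes the highest and the lowest of the TAp63-/- tumours were TAp63-/- cSCC 2 and TAp63-/- cSCC 3. An annotated protein-coding gene overlaps Itgam on the same strand, so its reads may be shared. Itgal, the α chain of LFA-1, ran from 1.36 to 6.46 FPKM in tumours and from 0.741 to 1.46 in skin, and Itgax, of dendritic cells and macrophages, from 2.83 to 27.2 and from 1.49 to 6.81. Their log2 changes in the TAp63-/- pair were 0.78 (SE 0.32, limma adjusted p = 0.0896) and 1.32 (SE 0.58, adjusted p = 0.113). Itgae and Itgb7, which form the E-cadherin receptor of epidermal T cells, ran from 0.340 to 4.03 and from 1.20 to 4.05 FPKM over all libraries, and Itgad was below 1 FPKM throughout.

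Markers of leukocytes were set beside these genes. Of all tested genes, 13.0% rose and 14.2% fell in the TAp63-/- pair, and 4.66% rose and 6.77% fell in the WT pair. Of 5 general leukocyte markers 0 passed in either pair with limma, 0 also at an unadjusted p below 0.05, and their sum was 40.3 to 290.0 FPKM in TAp63-/- tumours, 64.7 to 93.5 in WT tumours, 108 to 181 in TAp63-/- skin and 61.9 to 131 in WT skin. Of 5 tested neutrophil markers 4 rose in the TAp63-/- pair and 3 in the WT pair, with sums of 449 to 21141 FPKM in TAp63-/- tumours, 1607 to 2477 in WT tumours, 6.61 to 136 in TAp63-/- skin and 16.9 to 46.7 in WT skin. S100a8 and S100a9 in that list are also made by keratinocytes and make up most of its sum, and Ly6g was listed at 0 in 7 libraries. Of 6 macrophage and monocyte markers 1 fell in the TAp63-/- pair and 0 passed in the WT pair, with median log2 changes of -1.07 and -1.09. With limma, 5 of these markers had an unadjusted p below 0.05 in the TAp63-/- pair and 2 in the WT pair. Their sum was 120.1 to 750.2 FPKM in TAp63-/- tumours, 190 to 221 in WT tumours, 449 to 669 in TAp63-/- skin and 273 to 641 in WT skin. Of 5 T cell and 6 mast cell markers 0 passed in either pair; 1 and 3 had an unadjusted p below 0.05 in the TAp63-/- pair, and 0 and 1 in the WT pair. Of 5 Langerhans and dendritic cell markers 2 were tested, of which 1 rose and 1 fell in the TAp63-/- pair and 0 rose and 1 fell in the WT pair. The part of these cells in the values of the leukocyte integrins was not tested.

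Genes that work with the members were followed in 5 lists. Their counts stand beside 13.0% of all tested genes that rose and 14.2% that fell in the TAp63-/- pair. In the WT pair these shares were 4.66% and 6.77%. Of 4 hemidesmosome partners, 0 passed in either pair with limma, and 1 had an unadjusted p below 0.05 in each; their median log2 change was -0.42 in the TAp63-/- pair and -0.45 in the WT pair, beside 0.10 and 0.04 over all tested genes. Col17a1, the transmembrane collagen of hemidesmosomes, had a log2 change of 1.05 (SE 0.45, adjusted p = 0.106) in the TAp63-/- pair and 0.38 (SE 0.54, adjusted p = 0.697) in the WT pair. Plec, encoding plectin, which links integrin β4 to keratins, had -0.61 (SE 0.32, adjusted p = 0.186) and -1.09 (SE 0.39, adjusted p = 0.0944). Of 13 tested basement membrane genes, 2 rose and 3 fell in the TAp63-/- pair and 1 rose and 2 fell in the WT pair, with medians of -0.14 and -0.28. Col7a1, the anchoring fibril collagen that binds laminin-332, had 21.3, 56.0, 41.7 and 46.4 FPKM in TAp63-/- tumours and 25.9 and 14.6 in WT tumours, against 2.93, 3.58 and 4.07 in TAp63-/- skin and 1.87, 2.78 and 2.75 in WT skin. All tumours were far above all skin libraries, with a log2 change of 3.15 (SE 0.31, limma adjusted p = 5.88e-05) in the TAp63-/- pair and 2.57 (SE 0.37, adjusted p = 0.00209) in the WT pair. Frem1, an epidermal basement membrane protein, fell by 0.83 on the log2 scale (SE 0.18, adjusted p = 0.00648) and by 0.92 (SE 0.21, adjusted p = 0.0195). It had 0.0374 to 0.203 FPKM in tumours and 0.699 to 1.30 in skin. It reached the filter of 1 FPKM through skin alone, so its fall lies near the floor and its size is understated.

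Of 11 matrix ligands of integrins, 6 rose and 2 fell in the TAp63-/- pair, and 2 rose and 1 fell in the WT pair, with medians of 0.98 and 0.09. Tnc, encoding the wound matrix protein tenascin-C, rose by 3.44 on the log2 scale (SE 0.62, limma adjusted p = 0.00248) in the TAp63-/- pair and 2.97 (SE 0.74, adjusted p = 0.0280) in the WT pair, and its relative Tnn by 2.72 (SE 0.53, adjusted p = 0.00381) and 2.39 (SE 0.63, adjusted p = 0.0347). Npnt, encoding nephronectin, the ligand of integrin α8β1, fell by 1.78 (SE 0.22, adjusted p = 0.00021) and by 1.70 (SE 0.26, adjusted p = 0.00275). Fn1, the ligand of integrin α5β1, did not pass in either pair (log2 change -0.88, SE 0.37, adjusted p = 0.102 and -0.69, SE 0.44, adjusted p = 0.341) and was added to the named genes after its values were seen. Of 24 focal adhesion genes tested, 3 rose and 5 fell in the TAp63-/- pair and 2 rose and 2 fell in the WT pair, with medians of 0.10 and -0.01. Over all tested genes 13.0% rose and 14.2% fell in the TAp63-/- pair, and 4.66% rose and 6.77% fell in the WT pair. Vcl, encoding vinculin, rose by 1.13 (SE 0.16, limma adjusted p = 0.000582) and 0.94 (SE 0.19, adjusted p = 0.0118), and Src by 1.30 (SE 0.27, adjusted p = 0.00572) and 1.33 (SE 0.33, adjusted p = 0.0256). Tns1, encoding tensin-1, fell by 2.15 (SE 0.27, adjusted p = 0.000287) and by 1.77 (SE 0.33, adjusted p = 0.00728), and Fermt2, encoding the integrin activator kindlin-2, by 2.05 (SE 0.33, adjusted p = 0.00116) and by 1.48 (SE 0.39, adjusted p = 0.0348). Of 7 tested counter-receptors on other cells, 2 rose and 1 fell in the TAp63-/- pair, with Icam1, the ligand of LFA-1, at 0.94 (SE 0.19, adjusted p = 0.00521), and 0 passed in the WT pair, where 0 also had an unadjusted p below 0.05. Fibroblast markers moved too, with 6 of 7 lower in the TAp63-/- pair and 3 of 7 in the WT pair, and their sum was 793 to 2594 FPKM in TAp63-/- tumours, 1131 to 1382 in WT tumours, 3904 to 8772 in TAp63-/- skin and 2409 to 4864 in WT skin. Their part in the matrix genes was not tested.

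The genotype comparisons asked whether loss of TAp63 altered these genes within a tissue, and no member passed. In TAp63-/- skin against WT skin limma called 0 of 34 members (0.0203% of all tested genes), and 3 members and 738 of all tested genes had an unadjusted p below 0.05. In TAp63-/- cSCC against WT cSCC it called 0 of 34 (0% of all tested genes), with 1 member and 419 genes at an unadjusted p below 0.05. Lama3, Lamb3, Itga6 and Itgb4 in skin had log2 changes from -0.05 (Lamb3, 95% interval -0.67 to 0.58) to 0.13 (Itga6, -0.45 to 0.70). In tumours the intervals were wider, for example -2.02 to 1.61 around -0.21 for Lama3, so sizeable differences in either direction lie within them. Of the genes in the partner and marker lists, 0 passed in either genotype comparison or in the interaction.

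The member with the smallest p in skin was Itgb6 (ENSMUSG00000026971, chromosome 2, 60598292 to 60722643, mm10, minus strand). Its values of 16.8, 13.0 and 11.0 FPKM in TAp63-/- skin lay below the 24.4, 28.5 and 27.8 FPKM of WT skin without overlap. The log2 change was -0.95 (SE 0.17, unadjusted p = 0.00148, limma adjusted p = 0.831), the rank 21 of 14752 genes, and it failed the correction. The difference was lower in TAp63-/- skin whichever library was left out, from -1.10 to -0.82, with adjusted p from 0.183 to 1. Itga8 had 1.99, 1.94 and 1.81 FPKM in TAp63-/- skin and 1.35, 1.39 and 1.47 in WT skin (log2 change 0.28, SE 0.09, limma adjusted p = 0.923), and Lama5 had -0.45 (SE 0.17, adjusted p = 0.923). In tumours Lama5 came first, with a log2 change of 0.76 (SE 0.27, unadjusted p = 0.0288, limma adjusted p = 1), higher in all 4 TAp63-/- tumours than in both WT tumours. Itga2b (-0.83, SE 0.36, adjusted p = 1) and Itgb4 (0.69, SE 0.43, adjusted p = 1) followed.

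Whether the tumour-skin difference depended on genotype was tested as an interaction, and limma called 0 of 34 members (0.0271% of all tested genes), with 1 member and 444 genes at an unadjusted p below 0.05. That member was Lama5, whose tumour-skin difference was larger in TAp63-/- by 1.20 on the log2 scale (SE 0.29, unadjusted p = 0.00182, limma adjusted p = 0.687). Its tumours were higher and its skin lower in TAp63-/- than in WT, so both parts add to that value, and it failed the correction. Itga2b (-0.96, SE 0.52, adjusted p = 0.9998) and Itgb4 (0.70, SE 0.52, adjusted p = 0.9998) came next. The larger number of members called in the TAp63-/- pair than in the WT pair is therefore not a measured difference between the genotypes, and the WT pair had 2 tumours against 4.

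**Figure D5:**
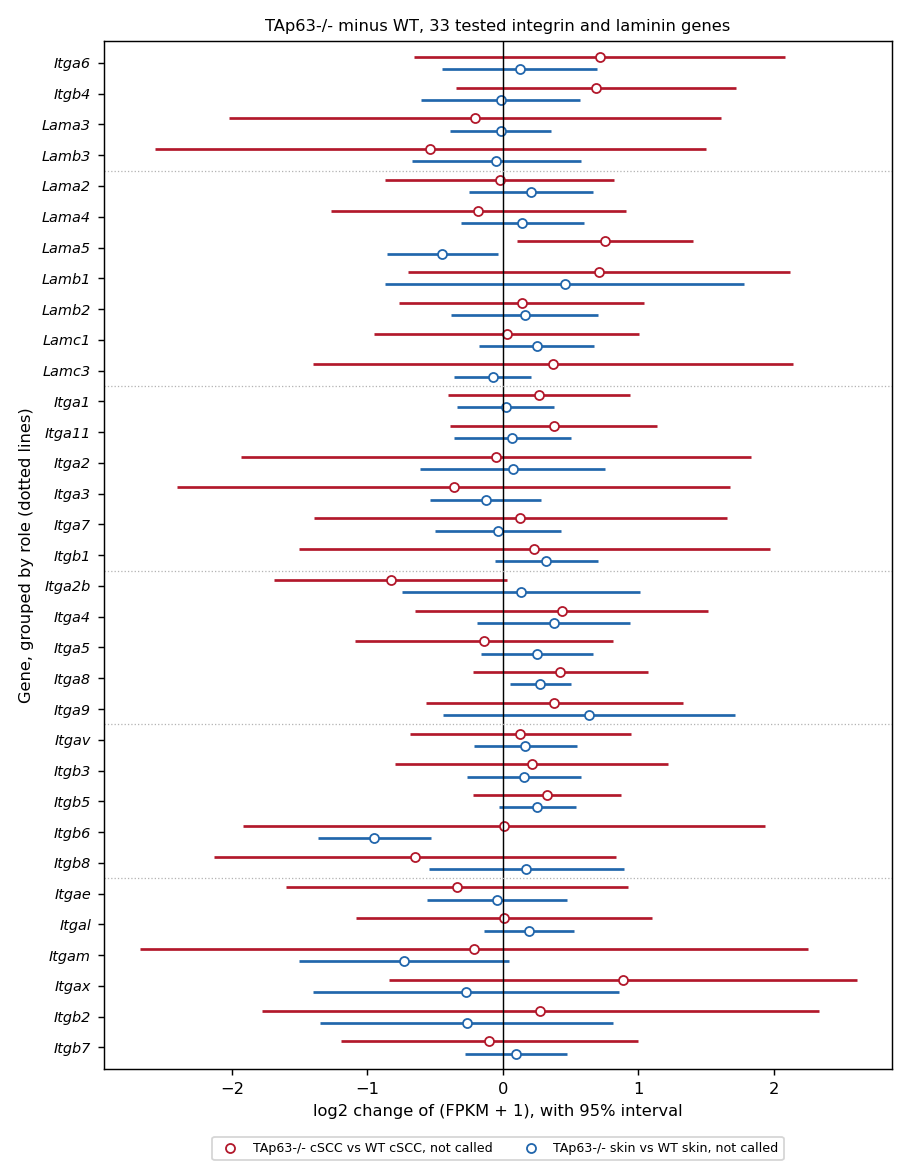
Change of 33 tested members between TAp63-/- and WT, as the difference of log2(FPKM + 1) with its 95% interval from limma, in tumours (red) and in skin (blue), grouped by role. No point passed the test; intervals are wider in tumours than in skin for most genes, and Itgb6 in skin (-0.95) and Lama5 in tumours (0.76) lie clear of 0 without correction.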

How the data were processed

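RNA was extracted with the Ambion miRVANA kit and libraries were made with the Illumina TruSeq RNA kit, per the labels. Per the submitters' processing notes, TopHat2 2.0 and Cufflinks 2.0 were used with the mouse build mm10; strand was not given in the sources used here. The deposited table holds FPKM, a unit inferred from Cufflinks and the values. All 12 columns share 1 distribution (at least 99.98% of the 10000 highest sorted values lay within 1% of the common value), so quantile normalization by the authors was inferred; it fixes each library's distribution and hides depth.

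Groups came from the labels. Genes at 1 FPKM or more in at least 2 libraries were fitted as log2(FPKM + 1), so fold changes of low genes are understated, with limma 3.58.1 in R 4.3.3 (variance trend, two-sided, Benjamini-Hochberg over 14752 genes, threshold 0.05). Tumour-skin comparisons and the interaction used all 12 libraries; genotype comparisons used the 6 of that tissue. The fit was tested on simulated data.

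Counts cover all tested members, and 1 member is not reported here. The family to describe, and so its members, and the 22 gene lists (165 of 167 entries present) were chosen with earlier results of these data known. Values in every library are given for called members, the 3 smallest p-values of each genotype comparison, and others by range. The text names up to 4 genes of each partner list by smallest p, with a few genes shown in full, Col17a1 and Plec for their role and Itgb1, Itgb2, Itgam and Lamc3 by their abundance or spread, chosen after their values were seen. Coordinates are the files', with the start counted from 1; 22 of 37 members have the same ones in GENCODE M21. No paired analysis was possible, because no identifier in the titles is shared between groups and skin and tumours came from mice of different ages. Alternatives changed the pseudocount, filter, scaling, libraries, weights and a sex term.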

Additional observations from a re-analysis of the deposited data

Results flagged for a closer look

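Within the 4 TAp63-/- tumours, the only group large enough to be examined for a library apart from the rest, 5 of 37 members had one. The cutoff flags about 1 in 20 groups of normally distributed values, which FPKM values need not be. The share over all genes was not computed, so the count is not read as an excess. Lamb1 had 116 FPKM in TAp63-/- cSCC 2, against 28.3 to 32.9 in the other 3, and Lamc3 had 6.11 FPKM in the same tumour, against 0.212 to 0.582. That tumour also had the highest summed fibroblast (2594 FPKM), smooth muscle and pericyte (284 FPKM) and leukocyte markers (290.0 FPKM) of the tumours, and the part of those cells was not tested. Lama5 was lowest in TAp63-/- cSCC 4 at 6.97 FPKM, against 10.1 to 10.3. Itga2b was highest in TAp63-/- cSCC 4 at 4.77 FPKM, against 1.96 to 2.43, and Itgad in TAp63-/- cSCC 3 at 0.694 FPKM, against 0.0345 to 0.138, a level too low to have been tested.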

How the results depend on the processing

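Refits of called members kept the call 45 times and lost it 20 times in the WT pair. In the TAp63-/- pair they kept it 137 times and lost it 28 times. The other refits, of members named in the genotype and interaction comparisons, had no call to lose, and all stayed not called. None of the 365 refits changed direction, and members not called were gained in some settings. In WT cSCC against WT skin the 5 calls became 9 with array weights (Itga3, Itga6, Itgb4 and Lamb3 gained) and 2 with sex as a term, and ranged from 0 (without WT cSCC 1) to 10 (without WT cSCC 2) when a library was left out, with 3 without WT skin 2 or 3. Fitting only WT libraries gave 4 calls and the sex term gave 2, none of them among the 5 (Itga2b, Itgal, Itgav and Lamc3, and Itga7 and Itgav). In TAp63-/- cSCC against TAp63-/- skin the 11 calls became 5 with sex as a term, of which 3 were shared; Itga7 and Lama4 were gained there, array weights gave 16, and leaving out a library gave 8 to 13. Under the sex term the log2 change of Lama3 in that pair was 1.84 (adjusted p = 0.145) and that of Lama2 -2.11 (adjusted p = 0.00802). The sex term there rests on 1 male tumour. Itga3 was lost in 10 and Lamb3 in 9 of 15 fits; Lama2 and Lama5 were lost in 0. Genotype and interaction counts were 0 in every alternative run. Median-of-ratios rescaling moved the median log2 change of all genes by -0.0744 in the TAp63-/- pair and by less elsewhere. Depth is unknown, which limits what can be said of members near 1 FPKM.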

Other observations

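The ratio of Itgam to Itgb2, the chains of Mac-1, was 2.40, 2.22, 1.54 and 3.48 in TAp63-/- tumours and 3.46 and 3.13 in WT tumours, against 0.848, 1.15 and 0.836 in TAp63-/- skin and 1.67, 0.809 and 1.65 in WT skin. It was above every skin library in 5 of the 6 tumours, and TAp63-/- cSCC 3 lay within the skin range. Itgam shares its strand with another annotated protein-coding gene. The ratio of Itgb6 to Itgb5 was 0.473, 0.418 and 0.366 in TAp63-/- skin and 0.975, 0.964 and 1.07 in WT skin. Neither ratio was tested, and the shared distribution may have altered the size of both.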
